A study of Mus musculus with 11 samples.

Results

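Collagen genes were measured in airway RNA of a mouse model of asthma exacerbation. They were chosen by name: a row of the deposited table counted as a collagen gene where its Ensembl identifier belonged to a protein-coding gene whose symbol is Col, a number, the letter a and a further number. This gave 44 of 21899 genes, by a rule that uses no expression value. Of these, 36 reached 0.5 FPKM on average across the libraries and were tested for differences between groups, while 8 lay under this level and were compared separately. FPKM are fragments divided by the exon length of a gene and by the total of the library. The exon length here is that of all exons of a gene merged, which can exceed its main transcript, so levels of different genes are only roughly on 1 scale.

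The RNA-seq data comprised 11 libraries of wild-type male BALB/c mice. The PBS group (3 libraries, PBS 1 to 3) was not sensitized and received PBS. The OVA/LPS/Vehicle group (4 libraries labelled OL 12, 34, 56 and 78) was sensitized to ovalbumin (OVA), a model allergen, challenged with it through the nose, and then exposed to lipopolysaccharide (LPS), a cell wall component of bacteria, and to the vehicle. The OVA/LPS/GGsTop group (4 libraries, OLG 1 to 4) had the same OVA and LPS and received the γ-glutamyl transferase inhibitor GGsTop into the trachea in place of the vehicle. All 3 groups carry the normal genotype, and the labels give no age. The labels name the tissue as trachea, whereas the methods of the study describe blunt dissection of airways from which the trachea was left out. Neither says whether a library is 1 mouse or whether OL 12, 34, 56 and 78 are pools, so the p-values below measure the spread between these libraries, which may be technical.

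Collagens are the main structural proteins of the extracellular matrix. They are trimers of chains that wind into a triple helix, and each chain has its own gene. Fibrillar collagens (types I, II, III, V, XI) form the fibrils that give airway walls, vessels and cartilage their tensile strength. Type IV forms the sheet-like network of basement membranes under epithelium and around vessels, and type VI forms beaded filaments between them and the fibrils. Thickening of the airway wall by deposited collagen is a known feature of long-standing asthma, and fibroblasts are a main source of it. RNA levels in a piece of tissue do not tell fewer cells of a kind from less RNA per cell, and they do not measure deposited protein.

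The totals of fragments implied by the steps of the FPKM ran from 14513137 to 18632383 per library. GC content went together with the library: the deviation of log2(FPKM + 1) from the gene means changed, for each 10 GC points, by -0.26 to -0.19 with OVA/LPS/Vehicle and by 0.046 to 0.11 with OVA/LPS/GGsTop. In PBS 1, 2 and 3 this slope was 0.061, 0.048 and 0.53, so PBS 3 stood apart from the others of its group. Tested collagen transcripts had a median GC content of 56.2%, above the 50.0% of all genes tested. Differences are therefore given from the deposited FPKM and, for the collagen genes called and wherever a call was lost or gained, after a correction of each library for GC content. The slope and the groups cannot be told apart in these libraries.

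**Figure D1:**
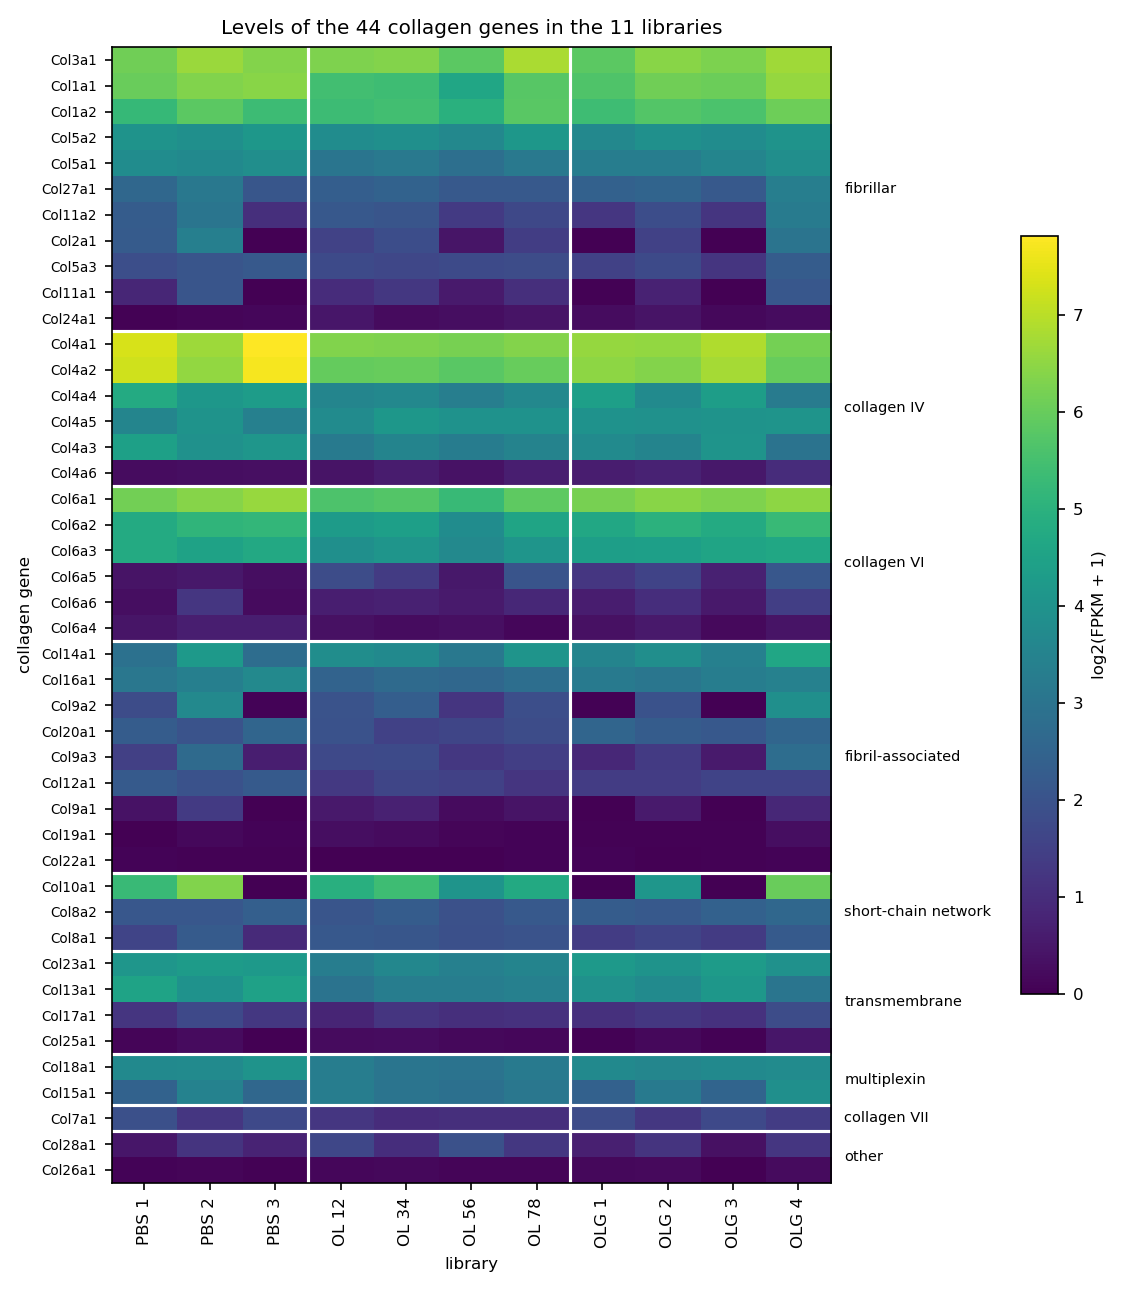
Levels of the 44 collagen genes, as log2(FPKM + 1) in colour, in the 11 libraries (columns, grouped into PBS, OL for OVA/LPS/Vehicle and OLG for OVA/LPS/GGsTop), with genes (rows) ordered by class and by mean level within a class. Collagen IV, I, III and VI chains carried the highest levels, and the cartilage genes Col10a1, Col2a1, Col9a2 and Col11a1 were near 0 in PBS 3, OLG 1 and OLG 3.

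The collagen RNA of these airways was dominated by few chains. On the deposited FPKM the highest mean levels over all libraries were those of Col4a1 (107 FPKM), Col4a2 (94.2 FPKM), Col3a1 (81.8 FPKM), Col6a1 (70.4 FPKM), Col1a1 (60.9 FPKM) and Col1a2 (46.3 FPKM), and no other member had a mean above 28.2 FPKM. Their order depends on the length used: merged exons were up to 2.94 times as long as the longest transcript. Per length of the longest transcript the same means would be 144 for Col3a1, 121 for Col4a1, 107 for Col1a2, 96.7 for Col4a2, 75.2 for Col6a1 and 67.4 for Col1a1. A length is the same in all libraries and leaves comparisons between libraries untouched. All 44 genes together made up 0.277%, 0.278% and 0.305% of the FPKM in the PBS libraries, 0.122% to 0.180% with OVA/LPS/Vehicle and 0.190% to 0.250% with OVA/LPS/GGsTop. The 3 ranges of this share did not overlap. Summed collagen FPKM were 896 ± 71.1 (SD, n = 3) in PBS, 556 ± 86.0 (SD, n = 4) in OVA/LPS/Vehicle and 715 ± 93.7 (SD, n = 4) in OVA/LPS/GGsTop, where OL 78 (643 FPKM) lay above OLG 1 (612 FPKM) and OLG 4 (839.5 FPKM) just under the lowest PBS library (840.0 FPKM). Neither measure was corrected for GC content.

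The first question was how collagen genes differed in the OVA/LPS/Vehicle airway from the PBS airway. Of the 36 tested genes, 16 were lower (44.4%, where 22.1% of all 14004 genes tested were lower) and 1 was higher (2.78%, where 15.9% of all genes were higher), at an adjusted p under 0.05 in limma. The median log2 difference of the collagen genes was -0.33, and that of all genes -0.01. The 16 lower genes were Col1a1 and Col5a1 of the fibrillar class, Col4a1, Col4a2, Col4a3 and Col4a4 of the basement membrane, Col6a1, Col6a2 and Col6a3 of the beaded filaments, and Col7a1, Col12a1, Col13a1, Col16a1, Col18a1, Col20a1 and Col23a1. In each of them all 4 OVA/LPS/Vehicle libraries lay below all 3 PBS libraries. The calls were made on the same values, so this is no separate support, and the share of all genes separated in this way was not counted. Col6a5 was the higher gene. After the GC correction 7 of the 36 were lower, namely Col4a1, Col4a2, Col4a3, Col6a3, Col12a1, Col18a1 and Col23a1, against 13.3% of all genes, and none was higher in limma, against 8.13% of all genes, with 13 lower and 4 higher at an unadjusted p under 0.05. The median of the 36 was then -0.09 and that of all genes -0.04. With GC content and length corrected together 3 were lower and 3 higher, and with array weights on the deposited FPKM 16 were lower and 5 higher. Of all 14004 genes, 1537 were lower and 1014 higher in the first of these fits, and 4473 lower and 3443 higher in the second. Without the library PBS 3, 11 of the 36 passed on the deposited FPKM, all of them lower. In that fit 1885 of all 14031 genes tested were lower and 1172 higher.

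The second question was how they differed in the OVA/LPS/GGsTop airway from the OVA/LPS/Vehicle airway, the groups that differ in the inhibitor. Here 7 of 36 genes were higher (19.4%, where 6.90% of all genes were higher), and none was lower in limma (1.81% of all genes were lower), with 12 higher and 1 lower at an unadjusted p under 0.05. The 7 genes were Col6a1, Col6a2, Col6a3, Col16a1, Col18a1, Col20a1 and Col23a1, and in each all 4 OVA/LPS/GGsTop libraries lay above all 4 OVA/LPS/Vehicle libraries. Here too the calls rest on the same values, and the share of all genes separated in this way was not counted. Each of the 7 was among the genes lower in OVA/LPS/Vehicle than in PBS, but both comparisons use the same 4 OVA/LPS/Vehicle libraries, so a low value there enters both. After the GC correction none of the 36 passed in limma, where 1.79% of all genes were higher and 0.428% lower, and 7 collagen genes were higher and 1 lower at an unadjusted p under 0.05. None of the 7 was called in each of the 8 fits that leave out 1 library, and no collagen gene was called without OL 56 or without OLG 1. The calls over all genes fell as well, from 966 higher and 254 lower to 25 and 10 without OL 56 and to 20 and 4 without OLG 1.

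Between OVA/LPS/GGsTop and PBS only Col12a1 passed, as lower (1 of 36, where 0.821% of all genes were lower), and none was higher in limma (2.06% of all genes were higher), with 2 higher and 5 lower at an unadjusted p under 0.05. After the GC correction Col12a1 was again the single call, where 1.34% of all genes were lower and 3.01% higher. Deviations from the group means correlated between PBS and OVA/LPS/GGsTop libraries of the same number, while libraries of unlike numbers were not compared. A fit of PBS 1 to 3 and OLG 1 to 3 only, with the number as a block, called no collagen gene, or 1 with the GC correction as well. Over all genes it called 90 higher and 32 lower, or 294 and 119 with the correction. A fit of the 2 groups alone without the block also called no collagen gene.

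**Figure D2:**
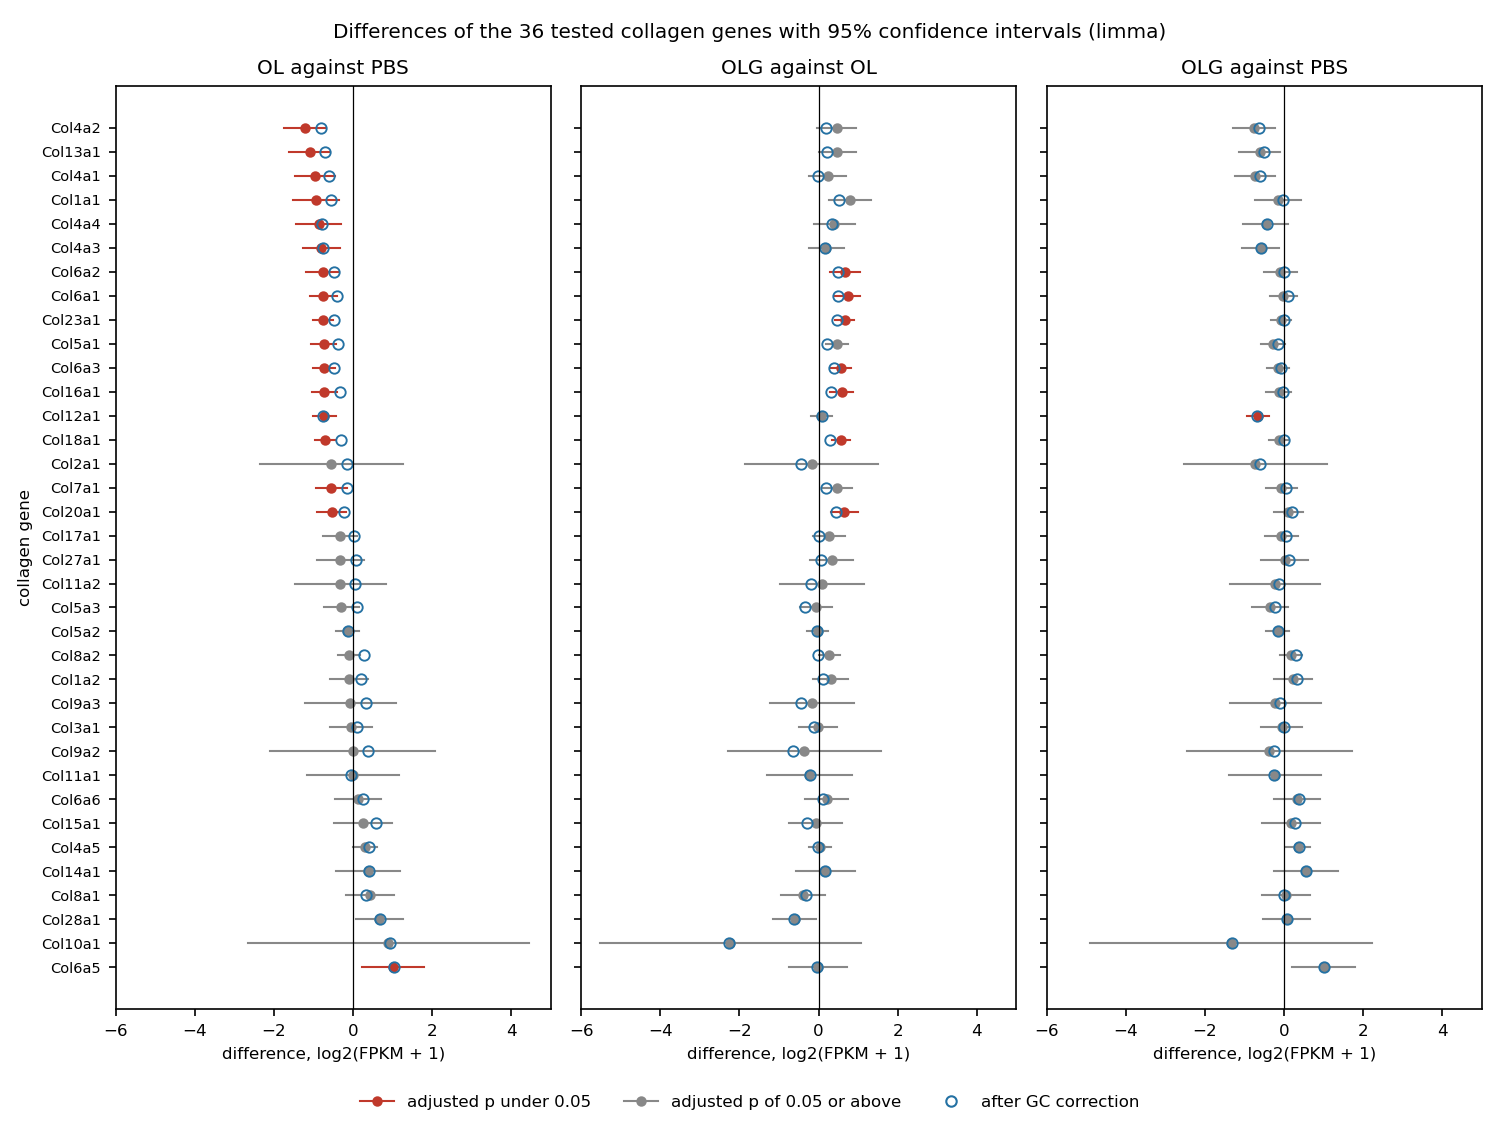
Differences in log2(FPKM + 1) (x axis) of the 36 tested collagen genes (rows, ordered by the first panel) in 3 panels, for OVA/LPS/Vehicle and PBS, for OVA/LPS/GGsTop and OVA/LPS/Vehicle, and for OVA/LPS/GGsTop and PBS, each as the first minus the second. Filled points with 95% confidence intervals are from the deposited FPKM, red where the adjusted p was under 0.05, and open circles are after the GC correction, which moved most of the red points of the left and middle panels towards 0.

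Type I collagen is the most abundant collagen of connective tissue and is made of the chains of Col1a1 and Col1a2, while Col3a1 encodes the type III chain that shares its fibrils. The level of Col1a1 (ENSMUSG00000001506, chromosome 11) was 64.9, 79.2 and 84.2 FPKM in PBS 1 to 3, 42.5, 41.2, 23.6 and 54.7 FPKM in OVA/LPS/Vehicle 12, 34, 56 and 78, and 49.7, 68.8, 66.0 and 95.3 FPKM in OVA/LPS/GGsTop 1 to 4. All OVA/LPS/Vehicle libraries lay under all PBS libraries, with the lowest value in OL 56, whereas OLG 1 fell within the OVA/LPS/Vehicle range. The log2 difference from PBS was -0.94 (SE 0.26, adjusted p = 0.0183), and it was -0.56 (adjusted p = 0.138) after the GC correction and not called without PBS 3. The OVA/LPS/GGsTop group lay 0.79 above OVA/LPS/Vehicle on the log2 scale (SE 0.24), which missed the threshold (adjusted p = 0.0609).

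Col1a2 (ENSMUSG00000029661, chromosome 6) gave another picture. Its level was 36.6, 56.8 and 40.1 FPKM in PBS, 39.8, 43.1, 30.1 and 54.8 FPKM in OVA/LPS/Vehicle and 40.8, 51.5, 48.0 and 67.2 FPKM in OVA/LPS/GGsTop. The ranges of the 3 groups overlapped, and the log2 difference of OVA/LPS/Vehicle from PBS was -0.09 with a 95% confidence interval of -0.57 to 0.39 (adjusted p = 0.758). Col3a1 (ENSMUSG00000026043, chromosome 1) was likewise spread over the same range in each group, with 69.2, 99.4 and 81.5 FPKM in PBS, 77.5, 81.0, 56.5 and 112 FPKM in OVA/LPS/Vehicle and 56.9, 86.0, 75.8 and 104 FPKM in OVA/LPS/GGsTop. Its log2 difference was -0.05 (interval -0.58 to 0.48, adjusted p = 0.876) for OVA/LPS/Vehicle against PBS and -0.01 (interval -0.50 to 0.48, adjusted p = 0.977) for GGsTop against vehicle. Col1a2 differed by 0.31 in the latter (interval -0.14 to 0.76, adjusted p = 0.317). These intervals allow changes of either sign for both genes.

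The ratio of Col1a1 to Col1a2 FPKM, chains of the same protein, therefore set the groups apart. It was 1.77, 1.39 and 2.10 in PBS, 1.07, 0.957, 0.783 and 0.999 in OVA/LPS/Vehicle and 1.22, 1.34, 1.37 and 1.42 in OVA/LPS/GGsTop, so each OVA/LPS/Vehicle library lay below each library of the other groups. After the GC correction (of FPKM + 1) the ranges were 1.40 to 1.92, 0.815 to 1.10 and 1.20 to 1.40 and still did not overlap between OVA/LPS/Vehicle and either of the other groups. The ratio of Col1a1 to Col3a1 behaved alike, at 0.797 to 1.03 in PBS, 0.418 to 0.549 in OVA/LPS/Vehicle and 0.801 to 0.917 in OVA/LPS/GGsTop, and at 0.798 to 0.902, 0.472 to 0.595 and 0.789 to 0.894 after the correction. The ratios were picked after the levels had been seen and are given without a test. The GC content of the longest transcript was 58.9% for Col1a1, 55.7% for Col1a2 and 52.5% for Col3a1.

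**Figure D3:**
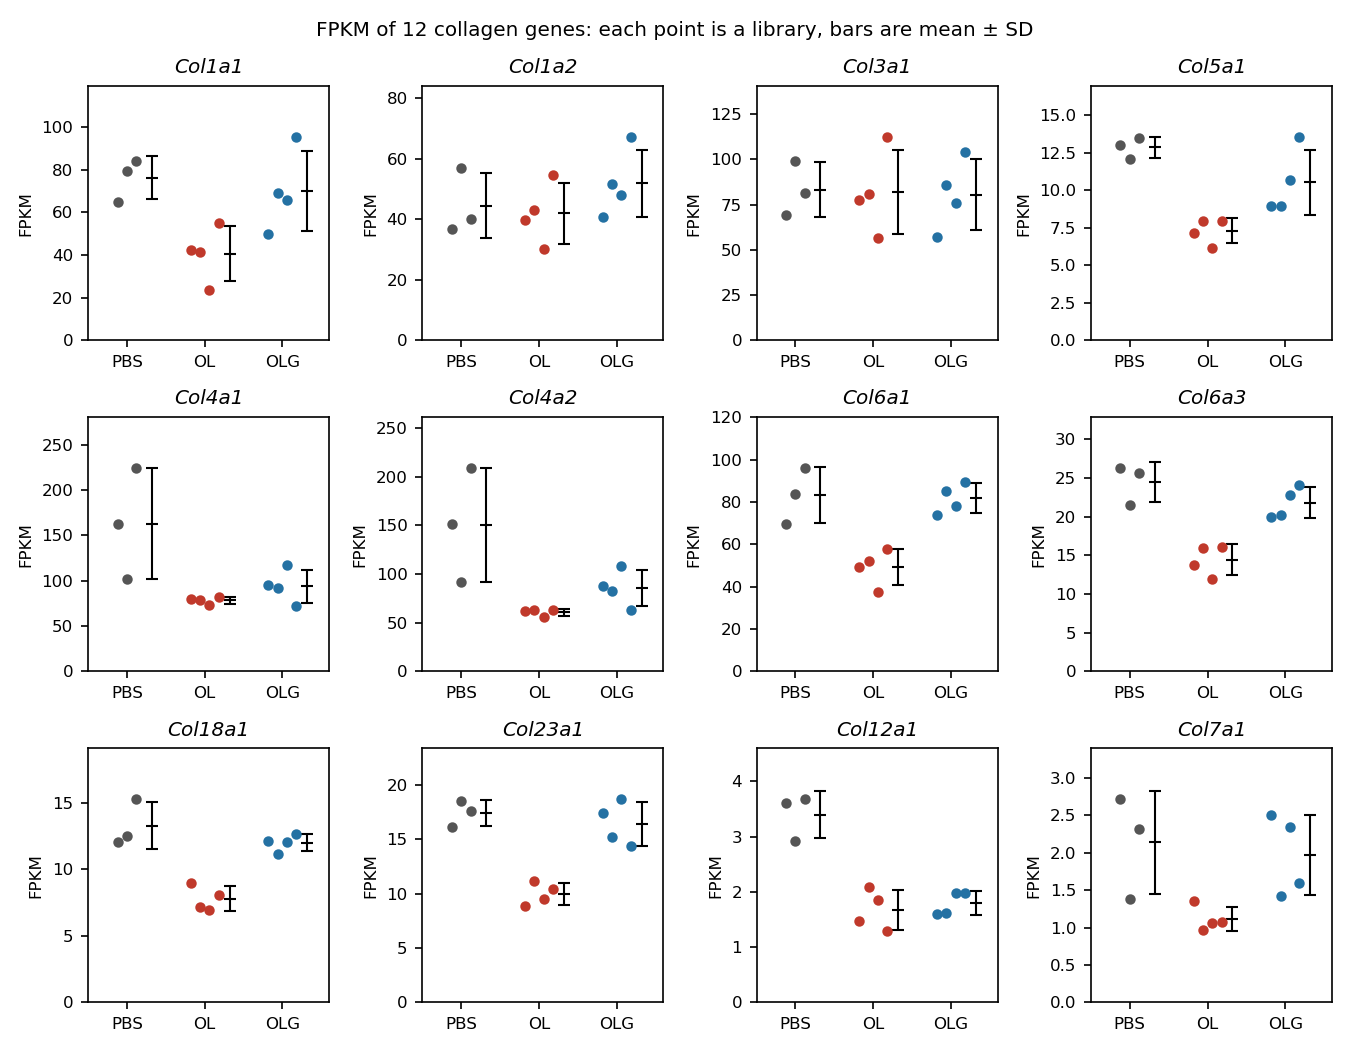
FPKM (y axis, from 0) of 12 collagen genes in PBS, OL (OVA/LPS/Vehicle) and OLG (OVA/LPS/GGsTop). Each point is a library, and bars are the mean ± SD (n = 3, 4 and 4). Col1a1, Col5a1, Col4a1, Col4a2, Col6a1, Col6a3, Col18a1, Col23a1 and Col7a1 were lower in all OL libraries than in all PBS libraries. Col12a1 was low in both OL and OLG, and Col1a2 and Col3a1 overlapped.

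The 250 bases before the start sites of Col1a2 and Col3a1 are shown because these genes overlapped between the groups. They are from RefSeq on GRCm38.p6, 5′ to 3′ on the plus strand at chr6:4505368-4505617 and chr1:45311288-45311537, and capitals mark 3 promoter motifs found by exact match on either strand, the TATA box (TATAAA), the CAAT box (CCAAT) and the GC box (GGGCGG).
Col1a2: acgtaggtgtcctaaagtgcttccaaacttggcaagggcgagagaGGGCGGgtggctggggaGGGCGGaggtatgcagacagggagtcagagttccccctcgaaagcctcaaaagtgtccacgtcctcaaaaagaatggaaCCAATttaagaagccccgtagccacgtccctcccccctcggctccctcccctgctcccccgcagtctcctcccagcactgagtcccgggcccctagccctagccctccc
Col3a1: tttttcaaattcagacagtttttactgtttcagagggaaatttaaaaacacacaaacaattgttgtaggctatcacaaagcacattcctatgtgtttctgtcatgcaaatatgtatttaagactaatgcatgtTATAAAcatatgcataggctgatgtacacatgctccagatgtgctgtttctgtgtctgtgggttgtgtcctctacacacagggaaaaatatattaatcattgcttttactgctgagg
Col1a2 had CCAAT beginning 109 bases before the start and GGGCGG at 205 and 188 bases, and Col3a1 had TATAAA at 117 bases. TATAAA was present in 12.4% of the 32851 windows of this length in the table and in 13.2% of the 38 windows of 35 collagen genes, CCAAT in 33.9% and 34.2%, and GGGCGG in 32.7% and 57.9%. A match is a run of letters and not a site shown to be bound.

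Type V collagen sits inside type I fibrils and limits their width. Its main chain gene Col5a1 had 13.0, 12.1 and 13.5 FPKM in PBS, 7.17, 7.93, 6.16 and 7.92 FPKM in OVA/LPS/Vehicle and 8.92, 8.94, 10.7 and 13.6 FPKM in OVA/LPS/GGsTop. The PBS libraries were close together and all OVA/LPS/Vehicle libraries lay below the other 7. The log2 difference was -0.74 for OVA/LPS/Vehicle against PBS (SE 0.14, adjusted p = 0.00496), and it passed without each library in turn but not after the GC correction (-0.37, adjusted p = 0.0812). It was 0.46 for GGsTop against vehicle (SE 0.13, adjusted p = 0.0501). The partner chain Col5a2 did not pass in either comparison (-0.14, interval -0.43 to 0.15, and -0.02, interval -0.29 to 0.25). The ratio of Col5a1 to Col5a2 was 0.473 to 0.566 in OVA/LPS/Vehicle, below 0.817 to 0.870 in PBS and 0.625 to 0.892 in OVA/LPS/GGsTop, but the ranges overlapped after the GC correction. Of the remaining fibrillar genes, Col5a3 and Col27a1 had means of 2.56 and 4.85 FPKM and did not pass in any comparison, and the cartilage chains are described further on.

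Col4a1 and Col4a2 encode the chains that make up the common type IV network and had the highest deposited FPKM of the collagen genes. Col4a1 (ENSMUSG00000031502) had 163, 102 and 224 FPKM in PBS 1 to 3, 80.2, 78.6, 73.5 and 82.4 FPKM in OVA/LPS/Vehicle and 94.9, 91.7, 117 and 72.3 FPKM in OVA/LPS/GGsTop. Col4a2 (ENSMUSG00000031503) had 151, 91.9 and 209 FPKM in PBS, 61.7, 63.2, 55.6 and 63.0 FPKM in OVA/LPS/Vehicle and 88.2, 82.4, 108 and 63.3 FPKM in OVA/LPS/GGsTop. Both genes were spread widely in PBS, with the highest values in PBS 3, and were close together in OVA/LPS/Vehicle. Against PBS, Col4a2 was lower by a log2 difference of -1.22 (SE 0.24, adjusted p = 0.00573), the lowest of the 36 collagen genes, and Col4a1 by -0.97 (SE 0.23, adjusted p = 0.0101). Both passed after the GC correction (-0.82, adjusted p = 0.0187, and -0.60, adjusted p = 0.0436) and without each library in turn, the smallest differences being -0.94 for Col4a2 and -0.70 for Col4a1 without PBS 3.

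With GGsTop against vehicle neither gene passed. Col4a2 differed by 0.46 (SE 0.22, adjusted p = 0.187), with OLG 4 only just above the highest OVA/LPS/Vehicle library, and Col4a1 by 0.23 (SE 0.21, adjusted p = 0.473), with OLG 4 below that group. The ratio of Col4a1 to Col4a2 was 1.08 to 1.11 in PBS, 1.24 to 1.32 in OVA/LPS/Vehicle and 1.08 to 1.14 in OVA/LPS/GGsTop. Thus the OVA/LPS/Vehicle libraries stood apart from the rest in the balance of the chains, and this was so after the GC correction too (1.08 to 1.12 in PBS and 1.23 to 1.31 in OVA/LPS/Vehicle, with all OVA/LPS/GGsTop libraries below the latter). This ratio was also picked after the levels had been seen. The genes lie on opposite strands of chromosome 8 with annotated start sites 21 bases apart in RefSeq.

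The other type IV chains make the networks of particular basement membranes, such as those of the alveolus. Col4a3 had 20.6, 14.5 and 16.4 FPKM in PBS, 8.10, 10.6, 8.72 and 10.2 FPKM in OVA/LPS/Vehicle and 12.4, 10.4, 15.7 and 6.87 FPKM in OVA/LPS/GGsTop. Its neighbour Col4a4 had 26.6, 16.6 and 18.9 FPKM, 10.7, 11.6, 9.08 and 11.5 FPKM, and 20.4, 12.2, 19.4 and 8.62 FPKM in the same order. Both were lower in all OVA/LPS/Vehicle libraries than in PBS, and OLG 4 was the lowest library of all for either gene. The log2 difference of OVA/LPS/Vehicle from PBS was -0.80 for Col4a3 (SE 0.22, adjusted p = 0.0169) and -0.87 for Col4a4 (SE 0.26, adjusted p = 0.0232). The call of Col4a3 was lost without PBS 1, and that of Col4a4 without PBS 1, PBS 3 or OL 56 and after the GC correction (adjusted p = 0.0583). Col4a5, with 14.1 FPKM on average, did not pass (0.31 against PBS, interval 0.00 to 0.62, adjusted p = 0.097).

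Endothelium and alveolar epithelium are cells that lie on type IV collagen. In OVA/LPS/Vehicle against PBS, 7 of 8 endothelial and 6 of 8 alveolar marker differences were below 0, as were 4 of 5 tested type IV genes. Over all 14004 genes 7151 were. After the GC correction 8 endothelial, 7 alveolar and 4 type IV differences were below 0, and 7701 over all genes. With GGsTop against vehicle, 4 of 8 endothelial and 6 of 8 alveolar differences were above 0, and all 5 of the type IV genes. Over all genes 7546 were. After the GC correction these counts were 4, 5 and 3, and 8124 over all genes. Of 8 endothelial genes, 5 were called lower in OVA/LPS/Vehicle than in PBS, namely Cldn5, Cdh5, Tie1, Kdr and Vwf, against 22.1% of all genes. None of the 8 passed after the GC correction, against 13.3% of all genes. Their summed FPKM was 991 to 1842 in PBS, 726 to 892 in OVA/LPS/Vehicle and 524 to 1181 in OVA/LPS/GGsTop. Of 8 alveolar genes, 4 were called lower, namely Sftpb, Ager, Slc34a2 and Abca3 (4 also after the GC correction, with Sftpa1 in place of Ager), against the same shares of all genes. Their sum was 10430 to 16620, 5392 to 8868 and 4766 to 12180 FPKM in the 3 groups. No defining marker of either list was at 0. The part of these cells in the collagen IV values was not tested.

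Type VI collagen forms beaded filaments that tie cells and basement membranes to the fibrils around them, and its chains come from Col6a1, Col6a2 and a further one among Col6a3 to Col6a6. It was the class with the most genes higher with GGsTop, 3 of 5 tested. The level of Col6a1 (ENSMUSG00000001119, chromosome 10) was 69.9, 83.8 and 96.1 FPKM in PBS, 49.1, 52.2, 37.6 and 58.0 FPKM in OVA/LPS/Vehicle and 74.0, 85.3, 78.2 and 89.7 FPKM in OVA/LPS/GGsTop. Col6a2 had 26.6, 33.6 and 35.5 FPKM, 18.7, 20.3, 13.0 and 22.4 FPKM, and 24.6, 31.6, 26.5 and 37.1 FPKM in the same order. Col6a3 had 26.3, 21.5 and 25.6 FPKM, 13.8, 15.99, 11.9 and 16.05 FPKM, and 20, 20.2, 22.8 and 24.1 FPKM. In all 3 genes the OVA/LPS/Vehicle libraries lay below those of both other groups, OL 56 was the lowest library, and the PBS and OVA/LPS/GGsTop ranges overlapped.

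In OVA/LPS/Vehicle against PBS the log2 differences were -0.75 for Col6a1 (SE 0.16, adjusted p = 0.00641), -0.76 for Col6a2 (SE 0.19, adjusted p = 0.0122) and -0.73 for Col6a3 (SE 0.13, adjusted p = 0.00395). The call of Col6a2 was lost without PBS 3 (adjusted p = 0.051), and of the 3 only Col6a3 passed after the GC correction (-0.48, adjusted p = 0.0211). With GGsTop against vehicle they were 0.73 for Col6a1 (SE 0.14, adjusted p = 0.0204), 0.67 for Col6a2 (SE 0.18, adjusted p = 0.0421) and 0.57 for Col6a3 (SE 0.12, adjusted p = 0.0224). After the GC correction they were 0.50, 0.48 and 0.40, with adjusted p of 0.0594, 0.127 and 0.0721. Col6a1 kept its call in 3, Col6a2 in 0 and Col6a3 in 4 of the 8 fits without 1 library. The share of collagen FPKM taken by type VI genes was 14.7% to 16.2% in PBS, 14.5% to 15.6% in OVA/LPS/Vehicle and 18.1% to 20.1% in OVA/LPS/GGsTop, so that the last range lay above both others. The type VI sum itself was 121 to 156 FPKM in OVA/LPS/GGsTop and overlapped with 124 to 158 FPKM in PBS, while the type IV sum was 168 to 276 FPKM and 240 to 479 FPKM in these groups.

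The alternative chains were low. Col6a5 had 0.332, 0.432 and 0.228 FPKM in PBS, 2.49, 1.54, 0.426 and 3.05 FPKM in OVA/LPS/Vehicle and 1.36, 1.95, 0.640 and 3.32 FPKM in OVA/LPS/GGsTop. It rose by a log2 difference of 1.01 in OVA/LPS/Vehicle (SE 0.36, adjusted p = 0.0459), but OL 56 lay within the PBS range, the call was kept in 1 of 7 fits without 1 library, and it missed the threshold after the GC correction (1.03, adjusted p = 0.063). Against PBS all OVA/LPS/GGsTop libraries were higher too (0.997, SE 0.36, adjusted p = 0.156). Col6a6 did not pass in any comparison, with 0.170 to 1.34 FPKM in PBS, 0.472 to 0.836 FPKM in OVA/LPS/Vehicle and 0.443 to 1.75 FPKM in OVA/LPS/GGsTop. Fibroblasts are a main source of collagen I, III, V and VI, and 3 of 11 fibroblast markers, Mfap4, Dpep1 and Pdgfra, were lower in OVA/LPS/Vehicle than in PBS, near the 22.1% of all genes (2 of 11 after the GC correction, without Mfap4), with a summed FPKM of 968 to 1238 in PBS, 598 to 830 in OVA/LPS/Vehicle and 739 to 1039 in OVA/LPS/GGsTop. None of the 11 passed with GGsTop against vehicle in limma. The part of fibroblast number in the collagen values was not tested.

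Fibril-associated collagens do not form fibrils but sit on their surface. Col14a1 was the highest of them and did not pass, with 6.54, 17.2 and 6.01 FPKM in PBS, 13.2, 12.2, 7.74 and 15.6 FPKM in OVA/LPS/Vehicle and 10.6, 13.6, 9.49 and 23.8 FPKM in OVA/LPS/GGsTop (0.38 against PBS, SE 0.37, adjusted p = 0.422). Col12a1, a long chain found on type I fibrils under load, had 3.60, 2.91 and 3.68 FPKM in PBS, 1.47, 2.08, 1.84 and 1.28 FPKM in OVA/LPS/Vehicle and 1.60, 1.61, 1.98 and 1.99 FPKM in OVA/LPS/GGsTop. It was lower in all 8 OVA/LPS libraries, with or without GGsTop, than in all 3 PBS libraries. The log2 difference from PBS was -0.72 for OVA/LPS/Vehicle (SE 0.13, adjusted p = 0.00422) and -0.65 for OVA/LPS/GGsTop (SE 0.13, adjusted p = 0.0269), and the GGsTop and vehicle groups differed by 0.07 (interval -0.19 to 0.33, adjusted p = 0.717). The GC correction left both calls in place (-0.76, adjusted p = 0.0085, and -0.67, adjusted p = 0.0191). With the replicate number as a block, in PBS 1 to 3 and OLG 1 to 3 only, the OVA/LPS/GGsTop difference from PBS was -0.69 (adjusted p = 0.074, or 0.0409 with the GC correction). In the main fit it lost its call without PBS 1, PBS 3, OLG 1 or OLG 2 (adjusted p of up to 0.109).

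Col16a1 and Col20a1 were lower in OVA/LPS/Vehicle and higher with GGsTop. Col16a1, a minor chain of skin and connective tissue, had 7.63, 9.45 and 11.7 FPKM in PBS, 4.66, 5.51, 5.13 and 6.13 FPKM in OVA/LPS/Vehicle and 8.08, 7.37, 8.94 and 9.79 FPKM in OVA/LPS/GGsTop. Its log2 difference was -0.73 against PBS (SE 0.14, adjusted p = 0.00546) and 0.58 with GGsTop (SE 0.13, adjusted p = 0.029). Col20a1 had 3.86, 2.96 and 4.88 FPKM, 2.92, 1.83, 2.10 and 2.54 FPKM, and 4.82, 3.83, 3.48 and 4.89 FPKM. Its differences were -0.54 (SE 0.16, adjusted p = 0.0251) and 0.65 (SE 0.15, adjusted p = 0.0308). OL 12 came close to PBS 2 in Col20a1, and its first call was lost without any of 4 libraries. With GGsTop, Col20a1 was called in 1 and Col16a1 in 2 of the 8 fits without 1 library. After the GC correction neither gene passed in either comparison (adjusted p of 0.0602 and 0.128 for Col16a1, 0.241 and 0.079 for Col20a1).

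Col18a1 and Col23a1 had the smallest p among the collagen genes with GGsTop. Col18a1 encodes a basement membrane collagen whose end fragment is endostatin, and Col23a1 a collagen anchored in the cell membrane. Col18a1 had 12.02, 12.5 and 15.3 FPKM in PBS, 8.96, 7.17, 6.91 and 8.07 FPKM in OVA/LPS/Vehicle and 12.1, 11.1, 12.1 and 12.6 FPKM in OVA/LPS/GGsTop. Col23a1 had 16.2, 18.5 and 17.6 FPKM, 8.84, 11.2, 9.49 and 10.4 FPKM, and 17.4, 15.2, 18.7 and 14.3 FPKM. In both genes the OVA/LPS/Vehicle libraries lay below all others with a clear gap, and the PBS and OVA/LPS/GGsTop ranges overlapped.

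Against PBS, Col18a1 differed by -0.70 on the log2 scale (SE 0.11, adjusted p = 0.00365) and Col23a1 by -0.75 (SE 0.11, adjusted p = 0.00348), and both passed without each library in turn and after the GC correction (-0.30, adjusted p = 0.0335, and -0.47, adjusted p = 0.0247). With GGsTop, Col18a1 was higher by 0.57 (SE 0.10, adjusted p = 0.0191) and Col23a1 by 0.66 (SE 0.11, adjusted p = 0.0158). After the correction these values were 0.29 (adjusted p = 0.0748) and 0.48 (adjusted p = 0.0557). Col23a1 kept its call in 6 and Col18a1 in 4 of 8 fits without 1 library. The GC content is 60.8% for Col18a1 and 55.1% for Col23a1. Col15a1, the other multiplexin, a class close to type XVIII, did not pass (0.25 against PBS, interval -0.48 to 0.98).

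Among the other membrane-bound collagens, Col13a1 had 22.4, 15.0 and 21.3 FPKM in PBS, 6.86, 8.86, 8.87 and 9.52 FPKM in OVA/LPS/Vehicle and 14.6, 12.4, 16.6 and 7.24 FPKM in OVA/LPS/GGsTop. The log2 difference of OVA/LPS/Vehicle from PBS was -1.10 (SE 0.23, adjusted p = 0.00703), or -0.71 after the GC correction (adjusted p = 0.0557). OLG 4 fell within that range while the other OVA/LPS/GGsTop libraries lay above it (log2 difference 0.48, adjusted p = 0.16). Col17a1, a chain of the hemidesmosomes that hold basal epithelial cells, had 1.29, 2.28 and 1.38 FPKM in PBS, 0.762, 1.33, 1.08 and 1.18 FPKM in OVA/LPS/Vehicle and 1.10, 1.40, 1.18 and 2.51 FPKM in OVA/LPS/GGsTop, and did not pass (-0.33 against PBS, SE 0.19, adjusted p = 0.19, and 0.26 with GGsTop, SE 0.18, adjusted p = 0.336). Col7a1, the anchoring fibril chain under stratified epithelium, had 2.72, 1.38 and 2.32 FPKM in PBS, 1.35, 0.972, 1.06 and 1.07 FPKM in OVA/LPS/Vehicle and 2.50, 1.43, 2.34 and 1.60 FPKM in OVA/LPS/GGsTop. Its difference from PBS was -0.55 (SE 0.18, adjusted p = 0.031), with PBS 2 only just above OL 12, and it was -0.16 (adjusted p = 0.53) after the GC correction and 0.03 with length corrected as well. With GGsTop it was 0.48 (SE 0.16, adjusted p = 0.0827).

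Cartilage collagens varied widely between the libraries of the PBS and OVA/LPS/GGsTop groups. Col2a1 and the chains of types IX and XI build the fibrils of cartilage, and Col10a1 the network of hypertrophic cartilage. Col10a1 was at 38.2, 79.7 and 0.0171 FPKM in PBS, 29.2, 41.1, 15.4 and 26.0 FPKM in OVA/LPS/Vehicle and 0.0212, 16.4, 0 and 64.3 FPKM in OVA/LPS/GGsTop. Col2a1 was at 3.71, 9.38 and 0 FPKM, 1.93, 2.63, 0.373 and 1.66 FPKM, and 0.0144, 1.85, 0.0206 and 7.05 FPKM. PBS 3, OLG 1 and OLG 3 were at or near 0 for both genes, with 0 to 3 fragments each, and PBS 2 and OLG 4 were the highest. Col9a1, Col9a2 and Col11a1 had the same low libraries, with at most 7 fragments there, while Col9a3 and Col11a2 kept 29 to 142 fragments.

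The cartilage genes Acan, Matn1 and Ucma were at 0 in the same 3 libraries and in no other. The summed adipocyte markers were also lowest there, at 41.9, 47.9 and 29.9 FPKM in PBS 3, OLG 1 and OLG 3. The summed basal epithelial markers were not, with PBS 1 (30.0 FPKM) below OLG 1 (40.1 FPKM). Chad, a further cartilage matrix gene, stayed at 13.2, 52.1 and 20.3 FPKM in PBS 3, OLG 1 and OLG 3. The summed FPKM of the cartilage markers was 13.9 to 185 in PBS, 56.4 to 124 in OVA/LPS/Vehicle and 21.4 to 302 in OVA/LPS/GGsTop. The sum was 13.9, 53.6 and 21.4 FPKM in PBS 3, OLG 1 and OLG 3, most of it Chad in all of them, and 56.4 FPKM in OL 56. No cartilage collagen passed in any comparison in limma, with log2 differences of 0.89 for Col10a1 (SE 1.62, adjusted p = 0.679) and -0.55 for Col2a1 (SE 0.82, adjusted p = 0.61) against PBS, and -2.23 (SE 1.502, adjusted p = 0.327) and -0.18 (SE 0.76, adjusted p = 0.9) with GGsTop. Without the 3 libraries, 13 collagen genes were called in OVA/LPS/Vehicle against PBS, all lower, 7 with GGsTop against vehicle, all higher, and none in OVA/LPS/GGsTop against PBS. Of all 14059 genes tested then, 2007 were lower and 1264 higher in the first comparison. In the second, 850 were higher and 890 lower, and in the third 73 were higher and 17 lower. The third comparison rests on 2 libraries a group.

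**Figure D4:**
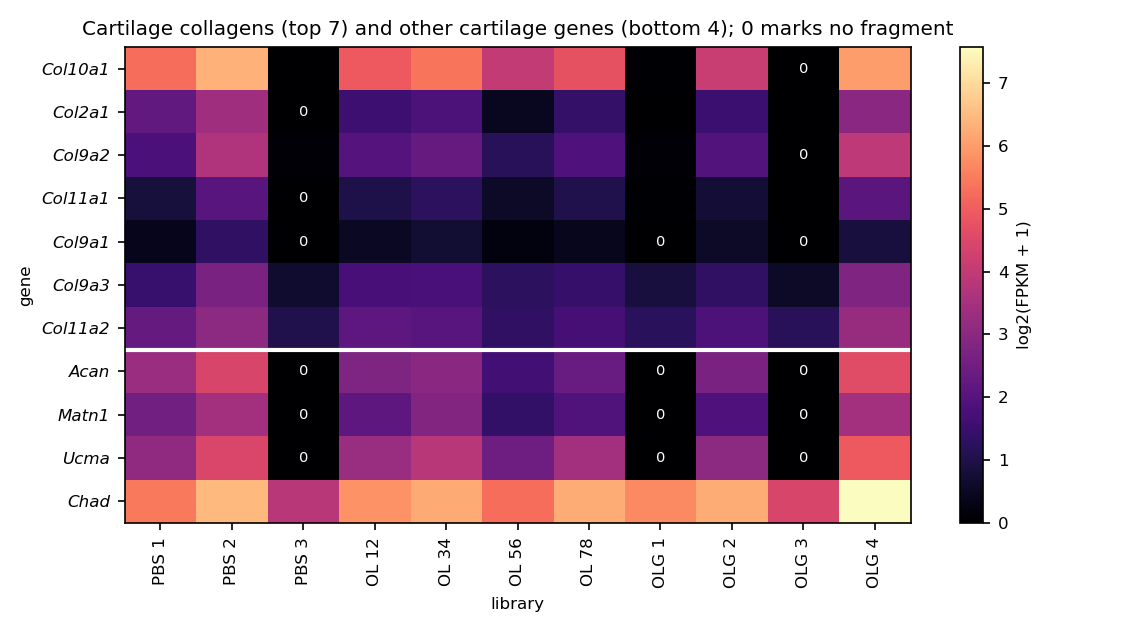
Levels of 7 cartilage collagen genes and 4 other cartilage genes (rows), as log2(FPKM + 1) in colour, in the 11 libraries (columns), where 0 marks a library with no fragment. The columns PBS 3, OLG 1 and OLG 3 are dark for all genes but Chad and, to a lesser degree, Col9a3 and Col11a2.

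The 250 bases before the start sites of Col10a1 and Col9a2 are shown as examples of members that moved together through these libraries. They are from RefSeq on GRCm38.p6, plus strand, at chr10:34389731-34389980 and chr4:121039316-121039565, with the same motifs in capitals and the reverse strand of the GC box written CCGCCC.
Col10a1: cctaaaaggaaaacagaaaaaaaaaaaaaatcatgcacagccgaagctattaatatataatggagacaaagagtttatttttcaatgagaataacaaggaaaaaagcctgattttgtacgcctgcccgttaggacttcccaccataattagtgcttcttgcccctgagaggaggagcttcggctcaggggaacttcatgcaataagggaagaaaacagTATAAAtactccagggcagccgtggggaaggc
Col9a2: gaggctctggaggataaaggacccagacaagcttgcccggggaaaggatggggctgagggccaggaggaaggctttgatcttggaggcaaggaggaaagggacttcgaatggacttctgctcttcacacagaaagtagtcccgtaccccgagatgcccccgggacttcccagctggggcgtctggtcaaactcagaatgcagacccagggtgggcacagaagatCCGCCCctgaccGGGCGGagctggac
Col10a1 had TATAAA 32 bases before the start, and Col9a2 had GGGCGG at 14 bases and, on the other strand, at 26 bases. The pair shared none of the 3 motifs in this window, which says nothing about other sites.

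The other short-chain collagens, Col8a1 and Col8a2, which form the networks of vessel walls, did not pass in any comparison (for example Col8a1 at 0.904 to 3.75 FPKM in PBS and 2.73 to 3.44 FPKM in OVA/LPS/Vehicle). Col28a1, a collagen found around nerves, had 0.379, 1.24 and 0.711 FPKM in PBS, 2.18, 1.02, 2.81 and 1.39 FPKM in OVA/LPS/Vehicle and 0.609, 1.24, 0.284 and 1.36 FPKM in OVA/LPS/GGsTop, with differences of 0.67 (SE 0.27, adjusted p = 0.0692) and -0.61 (SE 0.25, adjusted p = 0.129).

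The 8 genes under 0.5 FPKM were Col4a6, Col9a1, Col6a4, Col24a1, Col25a1, Col19a1, Col26a1 and Col22a1, with means from 0.456 down to 0.0302 FPKM. An exact two-sided permutation test gave p = 0.0286, the smallest it can give, for Col26a1 (5 to 9 fragments in PBS, 10 to 15 in OVA/LPS/Vehicle) and Col6a4 (0.350, 0.583 and 0.560 FPKM in PBS and 0.280, 0.2003, 0.257 and 0.0983 FPKM in OVA/LPS/Vehicle). For Col24a1 and Col4a6 all OVA/LPS/Vehicle libraries lay above PBS as well, with exact p = 0.0571 and p = 0.0857. None of the 8 reached 0.05 in the other 2 comparisons, and these p-values are not adjusted for the 24 tests.

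**Figure D5:**
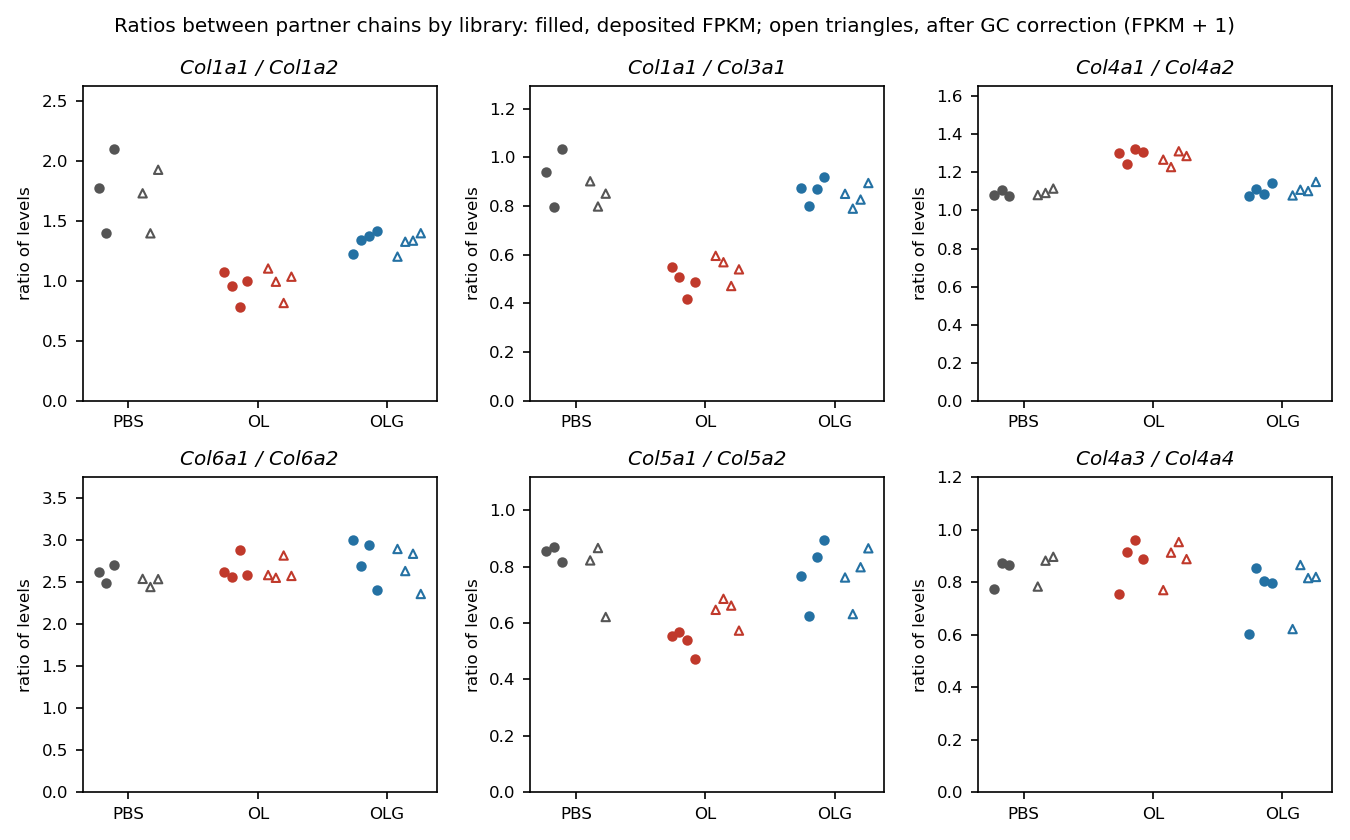
Ratios of the levels of partner chains (y axis, from 0) by library in PBS, OL (OVA/LPS/Vehicle) and OLG (OVA/LPS/GGsTop), as filled points from the deposited FPKM and open triangles after the GC correction of FPKM + 1. OL stands below the other groups for Col1a1 to Col1a2 and Col1a1 to Col3a1 and above them for Col4a1 to Col4a2 in both sets of values, while Col6a1 to Col6a2 and Col4a3 to Col4a4 overlap.

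Collagen chains need helpers to fold, to lose their propeptides and to be cross-linked. Of 19 genes of folding and modification, 10 were lower and 1 was higher in OVA/LPS/Vehicle than in PBS (6 lower and none higher after the GC correction), where 22.1% and 15.9% of all genes were (13.3% and 8.13% after it), with a median log2 difference of -0.50. Serpinh1, the collagen chaperone HSP47, fell from 198 to 122 mean FPKM (-0.67, SE 0.21, adjusted p = 0.0303, and 0.216 after the GC correction), though OL 78 (150.5 FPKM) lay above PBS 2 (143 FPKM). P4hb and Crtap, parts of the proline hydroxylation machinery, did not pass (-0.15, adjusted p = 0.236, and -0.33, adjusted p = 0.0567). With GGsTop 2 of the 19 were higher, the proline hydroxylases P3h3 (0.64, adjusted p = 0.0284) and P4ha2 (0.68, adjusted p = 0.0271), against 6.90% of all genes, and none was lower. Neither passed after the GC correction (0.36, adjusted p = 0.0875, and 0.60, adjusted p = 0.0523).

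Of 6 genes of propeptide removal, 5 were lower in OVA/LPS/Vehicle than in PBS, where 22.1% of all genes were. The same number was lower after the GC correction, where 13.3% of all genes were. They were Pcolce2 (-0.84, adjusted p = 0.017), Pcolce (-0.88, adjusted p = 0.00366), the procollagen C-proteinase Bmp1 (-0.77, adjusted p = 0.00427), Adamts2 (-0.96, adjusted p = 0.00915) and Adamts14 (-0.76, adjusted p = 0.00337). With GGsTop, Bmp1 (0.67, adjusted p = 0.0198) and Adamts14 (0.44, adjusted p = 0.0302) were higher, where 6.90% of all genes were. Neither passed after the GC correction (0.43, adjusted p = 0.0554, and 0.17, adjusted p = 0.393). Of 5 cross-linking lysyl oxidases, Loxl1 (-1.504, adjusted p = 0.00366) and Loxl3 (-0.89, adjusted p = 0.00427) were lower in OVA/LPS/Vehicle, also after the GC correction, while Lox and Loxl2 did not pass. The shares of all genes lower were those given for propeptide removal. The level of Loxl1 was 64.4, 44.8 and 115 FPKM in PBS, 20.4 to 26.8 FPKM in OVA/LPS/Vehicle and 28.7 to 37.5 FPKM in OVA/LPS/GGsTop, so that the 3 ranges did not overlap. No lysyl oxidase passed with GGsTop.

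Small proteoglycans space the fibrils. Bgn (biglycan) and Prelp were lower in OVA/LPS/Vehicle than in PBS (-1.01, adjusted p = 0.00337, and -1.43, adjusted p = 0.00323), Aspn (asporin) was higher (1.44, adjusted p = 0.0117), and the other 5 of 8, Ogn among them, did not pass. Over all genes 22.1% were lower and 15.9% higher in this comparison. With GGsTop, Bgn and Prelp were higher (0.67 and 0.75, each with adjusted p = 0.0224), where 6.90% of all genes were. Bgn, Prelp and Aspn passed against PBS after the GC correction as well, and with GGsTop Bgn passed (adjusted p = 0.0407) and Prelp did not (adjusted p = 0.0507). Of 9 collagen receptors only Mrc2, which takes up collagen fragments, passed, and it was lower both in OVA/LPS/Vehicle (-1.27, adjusted p = 0.00337) and in OVA/LPS/GGsTop (-0.80, adjusted p = 0.0296) than in PBS, also after the GC correction. Of 6 collagen-degrading proteases, Ctsk (cathepsin K) was higher in OVA/LPS/Vehicle (1.31, adjusted p = 0.0113) and Mmp14 and Mmp9 were lower (-0.45, adjusted p = 0.0339, and -0.94, adjusted p = 0.0219), while Mmp2 did not pass. Ctsk passed after the GC correction as well, and Mmp14 and Mmp9 did not (adjusted p of 0.228 and 0.0838). Over all genes, 15.9% were higher and 22.1% lower before the correction, and 8.13% and 13.3% after it.

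Transforming growth factor beta is the best known inducer of collagen genes. Of 19 genes of its signalling, 10 were lower and 2 were higher in OVA/LPS/Vehicle than in PBS, and 6 lower and none higher after the GC correction, with the same shares over all genes as given for folding. Ltbp4, which stores the latent factor in the matrix, had 121, 112 and 183 FPKM in PBS, 42.0 to 58.1 FPKM in OVA/LPS/Vehicle and 86.6 to 114 FPKM in OVA/LPS/GGsTop (-1.43, adjusted p = 0.00337). The targets Ccn2 and Postn, 2 of the 3 highest genes of the list, did not pass in any comparison on the deposited FPKM. With GC content corrected, Postn turned from 0.18 to -0.44 in OVA/LPS/Vehicle against PBS and passed (adjusted p = 0.0168), and it was also lower in OVA/LPS/GGsTop than in PBS (-0.45, adjusted p = 0.0344). With GGsTop, Ltbp4 (0.98, adjusted p = 0.0172) and Ltbp3 (0.76, adjusted p = 0.0224) were higher, and both passed after the GC correction (adjusted p of 0.0317 and 0.0411). Between OVA/LPS/GGsTop and PBS none of the 19 passed on the deposited FPKM in limma. Since Ltbp4 and the collagen genes were read from the same libraries, their changes are not independent of each other.

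Further marker lists describe the tissue that the collagen values come from. Markers of airway epithelium were high in all libraries, with a summed FPKM of 28340 to 51130, and 3 of 8 (Scgb3a2, Foxj1 and Epcam) were higher in OVA/LPS/Vehicle than in PBS. Of 8 smooth muscle genes 1 was lower (Actg2), of 5 mesothelial genes 2 were lower (Upk3b and Lrrn4), of 7 skeletal muscle genes 1 was higher (Acta1), and of 4 thyroid genes 2 were higher (Tg and Slc26a4), where 22.1% of all genes were lower and 15.9% higher. Actg2 and Lrrn4 did not pass with GC content corrected (adjusted p of 0.0523 and 0.0801). Of 7 nerve sheath genes 3 were higher in OVA/LPS/Vehicle than in PBS, where 15.9% of all genes were. After the GC correction 1 was, where 8.13% of all genes were. On the deposited FPKM, 6 of the 7 differences were above 0 there and 6 were below 0 with GGsTop against vehicle, where none passed. In OVA/LPS/Vehicle against PBS no gene of the basal, adipocyte and leukocyte lists passed in limma. Yet all 7 adipocyte differences were above 0 there, with a median of 1.51, where the median of all genes was -0.01. With GGsTop against vehicle all 7 were below 0, with a median of -1.65, where that of all genes was 0.03. Their sum was 323 to 986 FPKM in OVA/LPS/Vehicle, 41.9 to 417.5 in PBS and 29.9 to 464 in OVA/LPS/GGsTop. Their part in the collagen values was not tested. With GGsTop, Dst and Abca3 were higher and Tg was lower, where 6.90% of all genes were higher and 1.81% lower. None of these 3 passed after the GC correction. The thyroid sum was 23.2 to 332 FPKM in OVA/LPS/Vehicle and 6.13 to 18.8 FPKM in the other groups, and its part in the collagen values was not tested.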

How the data were processed

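RNA-seq of poly-A selected RNA was analysed in 11 libraries. The authors deposited 1 table of FPKM for 21899 genes by Ensembl identifier. The submitters' processing notes name cutadapt 1.15, HISAT2 2.0.5, HTSeq 0.9.1 and the build mm39. Whole fragments could be recovered for 97.7% to 97.8% of the gene values checked per library (within 0.02 of a whole number), which gave the totals in the report. Genes without fragments and those with the most fragments were not part of this check. Such totals limit counting error only.

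Symbols, chromosomes, exon lengths and GC content came from GENCODE M21 on GRCm38, another build than the authors', and 21846 of 21899 identifiers matched. Promoter windows came from a RefSeq table of GRCm38.p6, so their coordinates are not in the build of the FPKM table.

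The main test was limma 3.58.1 in R 4.3.3 on log2(FPKM + 1) of all 11 libraries in 3 groups, with a mean-variance trend, over the 14004 genes whose average reached 0.5 FPKM, with Benjamini-Hochberg adjustment over all of them and a threshold of 0.05. Differences are on this log2(FPKM + 1) scale, which understates changes of low genes. Collagen genes under 0.5 FPKM were compared by their mean log2(FPKM + 1) with a two-sided exact permutation test. The GC correction fitted a natural spline with 5 degrees of freedom per library to the deviations from gene means and kept the library mean. The scripts were tested on simulated data.

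The members, lists and tests were chosen with earlier results of these data known. Named genes were all called collagen genes, 10 genes set by name (Col1a1, Col1a2, Col3a1, Col4a1, Col4a2, Col5a1, Col6a1, Col2a1, Col17a1 and Col7a1), the highest gene of each class, and, in each other list, up to 3 of the highest genes and every called gene where at most 5 were called. Names beyond this rule were chosen after their values were seen, and a few genes of the lists are not reported here. The labels give PBS and OVA/LPS/GGsTop the numbers 1 to 3 in common. Deviations from the group means correlated at 0.367, 0.427 and 0.428 between libraries of the same number, so the number was also used as a block. That fit held PBS 1 to 3 and OLG 1 to 3 only. Libraries of unlike numbers were not correlated, so these values alone do not show a pairing. That the number pairs the samples is a reading of the data and is not stated in the labels.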

Additional observations from a re-analysis of the deposited data

Results flagged for a closer look

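Col19a1, a low fibril-associated collagen under the level tested, was at 0.216 FPKM in OLG 4 and at 0.0368 to 0.04002 FPKM in the other OVA/LPS/GGsTop libraries, which are 22 against 4 fragments. The gap to the nearest of the others was 0.981 of the whole range of the group. This was 1 of 88 groups of 4 libraries examined in this way, and chance gives about 1 in 20.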

How the results depend on the processing

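Of the collagen genes, 17 were called in OVA/LPS/Vehicle against PBS, 7 after the GC correction and 6 (3 higher and 3 lower) with transcript length corrected as well. Array weights gave 21 (5 higher and 16 lower), and leaving out each library gave 11 to 19, the lowest without PBS 3. Of all 14004 genes, array weights called 3443 higher and 4473 lower, and the correction of GC content and length 1014 higher and 1537 lower. The values with GGsTop against vehicle were 7, 0 and 0, with 14 (12 higher and 2 lower) under array weights and 0 to 6 without 1 library. Array weights called 3232 of all 14004 genes higher and 1982 lower here. The collagen count was 0 without OL 56 or OLG 1, 1 without OL 34 or OLG 3, and 4 without OL 78 or OLG 2. Over all genes, 25 were higher and 10 lower without OL 56, and 20 higher and 4 lower without OLG 1. For OVA/LPS/GGsTop against PBS, 1 was called, 8 (1 higher and 7 lower) under array weights, 0 with only the 2 groups fitted and 0 without the 3 libraries that lacked Acan, Matn1 and Ucma, an alternative chosen after seeing the data. Leaving out each library gave 0 to 4, with 4 without PBS 2 and 0 without PBS 1, PBS 3, OLG 1 or OLG 2. Over all genes, array weights called 1379 higher and 1178 lower, and the fit without PBS 2 called 949 higher and 639 lower. With the replicate number as a block, in PBS 1 to 3 and OLG 1 to 3 only, the collagen count was 0, and 1 with the GC correction as well. The block changed no other collagen call. Of the genes under 0.5 FPKM, 2 had an exact p under 0.05 in OVA/LPS/Vehicle against PBS, and 1 when FPKM were rescaled to the same total without mitochondrial genes. Col7a1 was the 1 gene that turned its sign after a call, to 0.035 (adjusted p = 0.888) with GC content and length corrected. The causes were not tested.

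Over single genes and alternatives, 1154 of 1368 values counted as the same. Among these, called values kept their call and direction. Values called in neither setting moved by at most their standard error, and their sign was not checked. Of the rest, 108 lost a call, 24 gained one and 81 values that were not called in either setting moved by more than their standard error. With 3 or 4 libraries a group, of which PBS 3 differed in its GC slope, small changes of low collagen genes were not detectable.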
